A study of Rattus norvegicus with 32 samples.

Results

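The 10 genes described here encode the oxygen-regulated subunits of the hypoxia-inducible factors (Hif1a and Epas1), the prolyl hydroxylases that control them (Egln1 and Egln3) and 6 targets of the factors (Vegfa, Adm, Slc2a1, Ldha, Pdk1 and Bnip3). They were chosen by symbol, and each symbol matched a single one of the 32883 genes listed in the male and in the female count table. Hippocampal RNA was sequenced from 32 Sprague-Dawley rats aged 65 days, with 4 male and 4 female rats in each of 4 diet groups. The IS group came from dams kept on an iron-sufficient diet, and the ISch group from such dams given extra choline for part of pregnancy. The FID group was labelled ID or FID by the submitters. It came from dams fed an iron-deficient diet from early pregnancy into the first days after birth and an iron-sufficient diet from then on. The FIDch group, labelled IDCh or FIDCh, had the iron-deficient diet and the choline. All 4 groups were thus on an iron-sufficient diet when the hippocampus was taken. The study's methods give these diets, and a single male per litter, for the male rats, and the litters of the female rats are not given in the sources used here. All males were sequenced in batch I and all females in batch II, so a difference between male and female rats and one between batches cannot be told apart.

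Hypoxia-inducible factors are transcription factors made of an oxygen-regulated alpha subunit, such as Hif1a or Epas1, and a stable partner. When oxygen and iron are present, the Egln enzymes, which hold ferrous iron in their active site, hydroxylate the alpha subunit, and it is ubiquitinated and destroyed. When either is lacking, the factor accumulates, binds short DNA motifs named hypoxia response elements and raises genes of blood vessel growth, glucose uptake, glycolysis and mitochondrial turnover. The alpha subunits are controlled mainly as proteins, which RNA counts do not measure. Epas1 and Slc2a1 are known in brain for their high expression in blood vessels, Hif1a and Ldha for expression in many cell types.

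The promoters of the 4 targets whose counts met the study's criterion in at least 1 comparison below are shown, since the hypoxia response element is how the factors reach these genes. Each is the 250 bases before the gene's start in RefSeq's annotation of assembly GRCr8, read 5′ to 3′ on the strand of the gene. The core motifs ACGTG and GCGTG were searched on both strands, matches are in capitals, and an ACGTG within the palindrome CACGTG counts on both strands.
Slc2a1 (chr5:138002272-138002521, plus strand): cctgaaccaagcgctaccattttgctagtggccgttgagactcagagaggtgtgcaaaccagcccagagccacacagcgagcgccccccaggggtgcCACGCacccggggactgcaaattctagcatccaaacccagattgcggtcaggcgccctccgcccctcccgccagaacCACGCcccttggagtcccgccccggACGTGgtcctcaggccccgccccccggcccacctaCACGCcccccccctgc
Ldha (chr1:106507842-106508091, plus strand): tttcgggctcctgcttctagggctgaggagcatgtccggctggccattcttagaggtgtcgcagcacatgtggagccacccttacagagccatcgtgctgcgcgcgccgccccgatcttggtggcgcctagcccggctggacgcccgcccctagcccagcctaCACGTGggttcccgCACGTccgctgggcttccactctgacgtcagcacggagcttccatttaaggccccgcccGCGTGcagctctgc
Bnip3 (chr1:203154963-203155212, minus strand): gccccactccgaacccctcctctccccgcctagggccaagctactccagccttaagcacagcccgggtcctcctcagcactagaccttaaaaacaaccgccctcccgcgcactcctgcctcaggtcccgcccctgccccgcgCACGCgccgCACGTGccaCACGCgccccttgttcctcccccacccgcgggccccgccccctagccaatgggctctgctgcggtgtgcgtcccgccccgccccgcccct
Vegfa (chr9:22452604-22452853, plus strand): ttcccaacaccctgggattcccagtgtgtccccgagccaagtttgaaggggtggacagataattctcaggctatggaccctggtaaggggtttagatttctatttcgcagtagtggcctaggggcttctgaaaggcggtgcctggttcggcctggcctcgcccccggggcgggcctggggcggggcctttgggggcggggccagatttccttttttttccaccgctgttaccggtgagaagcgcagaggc
The Slc2a1 window held 4 matches, the Ldha window 4 and the Bnip3 window 4, and 2 of those of Ldha and 2 of those of Bnip3 were the strands of 1 palindrome. The Vegfa window held 0 matches, as did the window of the other Vegfa start in the table. Hif1a, Egln1 and Pdk1 had 3, 1 and 2 matches, and Epas1, Egln3 and Adm had 0. Of all 33469 windows of this length, 36.7% held a match. These matches are letters in a window and were not compared with any measured binding. Bases farther from the start were not searched, so a gene with 0 matches may have response elements elsewhere. A match need not be an element in use.

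Between 3515806 and 9517503 reads per male rat and between 18439999 and 26616318 per female rat were counted on genes. Counts were scaled to library size as normalized CPM values by edgeR's TMM method within each sex, so levels of male and female rats were not compared with each other, and levels of different genes were not compared since their lengths were not used. The male library with the fewest reads was FIDch replicate 2. In the marker lists used as a check, all 6 genes of hippocampal fields and all 6 neuronal genes were counted in each of the 16 libraries of both sexes. The sum of 6 choroid plexus genes, among which Otx2 was at 0 in all libraries, was 11.5 to 391 CPM in male FID rats against 6.76 to 9.37 CPM in male IS rats. The highest value belonged to male FID replicate 4, where Ttr, the defining transcript of that tissue, reached 349 CPM.

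All 10 genes were counted in every library. The lowest and highest of 16 male rats differed 1.25-fold for Ldha to 1.58-fold for Vegfa among the 9 genes other than Adm, and those of 16 female rats 1.19-fold for Hif1a to 1.5-fold for Vegfa. Adm, which encodes the vasodilator adrenomedullin, was near the limit of detection. It had 3 to 9 counts in each male rat, too few for edgeR's expression filter, and 14 to 41 counts in each female rat. It was therefore tested in females and in the comparisons across sexes, and its male values are given as a description.

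**Figure D1:**
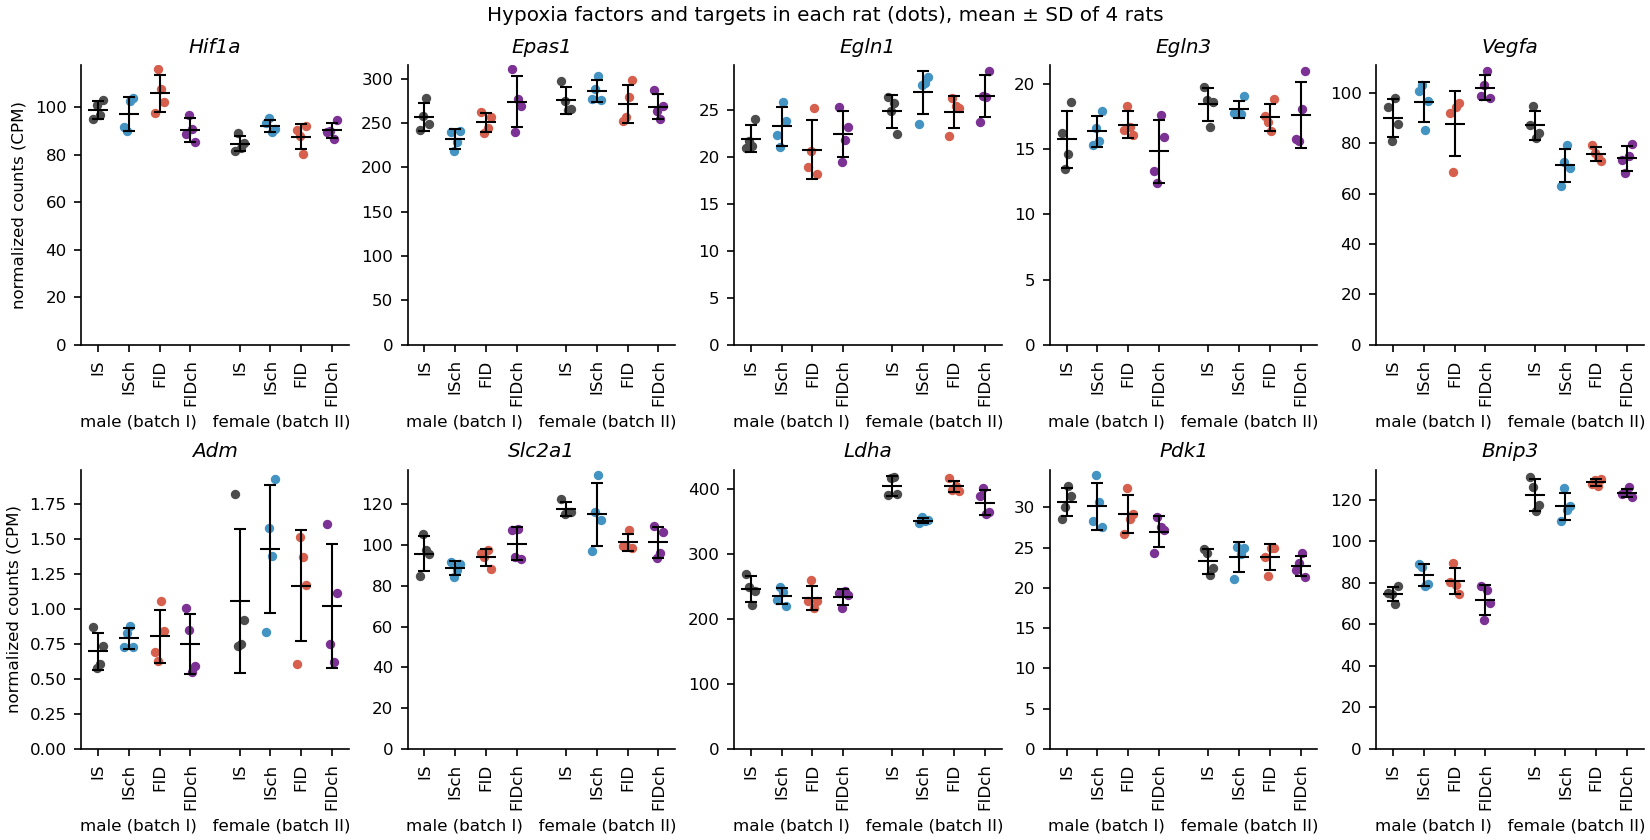
Normalized counts (CPM, vertical axis starting at 0) of the 10 genes in each rat, by diet group, for male rats (left in each panel) and female rats (right). Dots are rats and bars show the mean ± SD of 4. The 4 female ISch rats lie below all 4 female IS rats for Ldha (346 to 356 against 389 to 418 CPM) and Vegfa. Some of the groups compared also lie apart for Hif1a, Epas1, Slc2a1 and Bnip3. For Egln1, Egln3, Pdk1 and Adm all groups compared overlap.

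Each group was compared with another within a sex by edgeR's quasi-likelihood test over all genes, and calls followed the criterion of the study, a log2 fold change above 0.2 in size whose unadjusted p was under 0.05. Standard errors and adjusted p-values below come from that test, and exact permutation p-values are two-sided tests of the CPM values, which cannot go below 0.0286 with 4 rats against 4. Of the 9 genes tested in males, 0 met it in FID against IS, where 4.62% of all 13851 genes tested did, 0 in ISch against IS (8.06% of all genes), 0 in FIDch against IS (6.12%) and 2 in FIDch against FID (13%). The 0 counts are those of edgeR's quasi-likelihood test, and DESeq2 and the likelihood ratio test also called 0 in these 3 comparisons. At an unadjusted p under 0.05 alone, 0 of the 9 genes were found in male FID against IS, 2 in ISch against IS and 1 in FIDch against IS. Of the 10 genes tested in females, 1 met the criterion in FID against IS (6.47% of all 14632 genes tested), 2 in ISch against IS (10.3%), 2 in FIDch against IS (8.98%) and 0 in FIDch against FID (12.7%), where DESeq2 also called 0 and 0 had an unadjusted p under 0.05. With so few genes, a count of 1 or 2 of 9 or 10 is near these shares of all genes. The 3 comparisons of a sex with IS share its 4 IS rats, so they are not independent of each other.

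**Figure D2:**
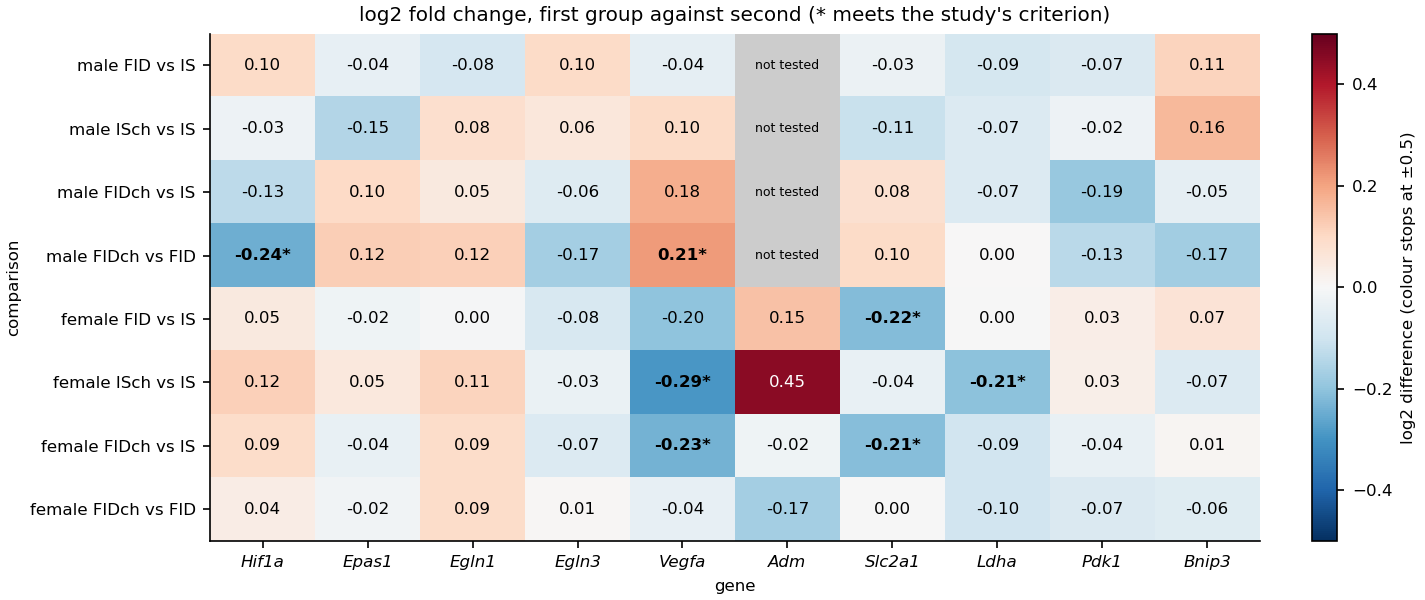
Log2 fold change of each gene (columns) in the 8 comparisons within a sex (rows), first group against second, with colour from blue (lower) to red (higher). Adm was not tested in males. An asterisk marks the study's criterion, which 7 values met, and Vegfa in female FID against IS lay just under its limit of 0.2 at -0.1996.

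In female rats, the glucose transporter Slc2a1 was lower in FID and FIDch than in IS, and the angiogenic factor Vegfa was lower in ISch and FIDch than in IS. Slc2a1 encodes the glucose transporter of the blood-brain barrier. Its values in the female IS rats were 123, 115, 116 and 116 CPM and in the female FID rats 99.4, 99.6, 107 and 98.7 CPM. All FID rats lay below all IS rats, and Slc2a1 fell by 13.9% (log2 fold change -0.22, standard error 0.042, adjusted p = 0.0631, exact permutation p = 0.0286). In the female FIDch rats the values were 109, 93.8, 95.9 and 106 CPM. These too lay below all IS rats (log2 fold change -0.21, standard error 0.058, adjusted p = 0.147, exact permutation p = 0.0286). Between FIDch and FID the log2 fold change was -0.0021, with an approximate 95% interval from -0.12 to 0.11. The female ISch rats spread from 96.9 to 134 CPM and overlapped IS. Without IS replicate 1, the highest of the IS rats, the FID value became -0.19 and no longer passed the limit on the fold change. For FIDch, leaving out IS replicate 1 gave -0.19, FIDch replicate 2 -0.18 and FIDch replicate 3 -0.19, all under the limit. The summed level of 7 endothelial marker genes was 157 to 165 CPM in female IS, 148 to 179 in FID and 145 to 163 in FIDch rats, ranges that overlap between IS and each of the others, and 0 of the 7 met the criterion in female FID against IS and 1 in FIDch against IS (Cdh5, -0.22). Their part in the Slc2a1 values was not tested. In whole tissue, fewer cells of a type and less RNA per cell cannot be told apart.

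Vegfa encodes the growth factor that drives the sprouting of blood vessels. The female IS rats had 87.1, 94.8, 82 and 84 CPM, the ISch rats 63.2, 72.4, 79.1 and 70.2 CPM and the FIDch rats 73.2, 68, 74.9 and 79.8 CPM. All ISch and all FIDch rats lay below all IS rats. Vegfa fell by 18.4% in ISch (log2 fold change -0.29, standard error 0.069, adjusted p = 0.0524, exact permutation p = 0.0286). It fell by 15% in FIDch (log2 fold change -0.23, standard error 0.063, adjusted p = 0.147, exact permutation p = 0.0286). The FID rats, at 79.4, 76.2, 74.6 and 72.9 CPM, also lay below all IS rats, and Vegfa there stood at -0.1996 on the log2 scale (standard error 0.052, adjusted p = 0.156), under the limit of 0.2. It passed the limit without FID replicate 1 (-0.22), IS replicate 3 (-0.23) or IS replicate 4 (-0.21). In female ISch against IS the criterion was met with each of the 8 libraries left out, at values from -0.34 to -0.24, and in FIDch against IS it was lost without IS replicate 2 (-0.19) and without FIDch replicate 2 (-0.20). In one model of the 16 female libraries, the difference between rats with and without choline was, among formerly iron-deficient rats, 0.25 above that among iron-sufficient rats on the log2 scale (standard error 0.093, adjusted p = 0.442). Vegfa was the 1 gene of the 10 at the criterion in that model, against 7.33% of all genes.

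The glycolytic enzyme Ldha, the lactate dehydrogenase subunit that turns pyruvate into lactate, was lower in the female ISch rats. Their values were 346, 356, 350.1 and 351 CPM against 389, 416, 418 and 392 CPM in IS. All ISch rats lay below all IS rats, and their spread was the smallest of the 4 female groups of this gene. Ldha fell by 13.3% (log2 fold change -0.21, standard error 0.038, adjusted p = 0.0203, exact permutation p = 0.0286). In the main fits it was the 1 member with an adjusted p under 0.05 in any comparison, in one where 2.54% of all genes had such a p. Over all alternatives its adjusted p ran from 4.45e-05 to 0.106, and it rose above 0.05 without IS replicate 2 (0.0786), IS replicate 3 (0.0517), IS replicate 4 (0.051), ISch replicate 3 (0.051) or ISch replicate 4 (0.0624), and with a replicate block (0.106). The log2 fold change was just under 0.2 in size without IS replicate 2 or 3 or ISch replicate 1 or 3, within -0.22 to -0.19 over the 8 libraries left out. The female FID rats had 415, 398, 404 and 396 CPM, all within the IS range, and FIDch rats 388, 400.1, 361 and 363 CPM. The FIDch values reached from below the lowest IS rat into the IS range.

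Levels of other cell types' genes differed between the same female groups. The sum of 6 neuronal marker genes was 7267 to 7565 CPM in IS and 6794 to 7111 CPM in ISch rats, which did not overlap. The sum of 5 microglial genes was 199.7 to 211 CPM in IS, 168 to 196 CPM in ISch and 174 to 186 CPM in FIDch rats, and 2 of the 5 met the criterion in ISch (P2ry12, log2 fold change -0.41, and Cx3cr1, -0.23). Of 6 astrocyte genes 1 met it in ISch, Aldh1l1 at 0.36, and the astrocyte sums of IS (3379 to 3706 CPM) and ISch rats (3559.6 to 4003 CPM) overlapped. Of 6 hippocampal field genes 1 met it, Prox1, in ISch (0.39, adjusted p = 0.0227 by edgeR's quasi-likelihood test) and in FIDch (0.30). The log2 fold changes of 4 of these 6 were negative in ISch and in FIDch. All 4 entries of blood genes were positive in ISch, and 2 of them, both Hba-a2, met the criterion (0.52 and 0.50). The part of these cell types, of regions and of blood in the Vegfa and Ldha values was not tested.

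In males, 4 of the genes met the study's criterion, which uses an unadjusted p, for a choline difference that varied with iron history. In one model of the 16 male libraries, 4 of 9 genes met the criterion for the iron by choline interaction, which compares the difference FIDch minus FID with the difference ISch minus IS, against 14.4% of all 14314 genes. Epas1 and Slc2a1 had positive interactions and Bnip3 and Hif1a negative ones. None of the 4 had an adjusted p under 0.05.

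Bnip3 encodes a receptor on mitochondria that marks them for degradation. Its values were 75.3, 74.6, 69.9 and 78.5 CPM in male IS and 88.8, 87.5, 78.6 and 79.2 CPM in ISch rats, and 80.5, 89.3, 78.9 and 74.8 CPM in FID and 78.3, 62.1, 76.3 and 70.1 CPM in FIDch rats. All ISch rats lay above all IS rats, though the log2 fold change of 0.16 was under the limit of 0.2, and FIDch overlapped FID (-0.17, at the criterion without FID replicate 4 or FIDch replicate 1, both -0.21). The interaction of Bnip3 was -0.33 on the log2 scale (standard error 0.11, adjusted p = 0.195). It met the criterion without any 1 of the 16 libraries (-0.37 to -0.27), and without the 3 libraries whose names have another form (ISch replicates 1 and 2 and FIDch replicate 2) it was -0.20 with adjusted p = 0.419 and no longer met the criterion, its unadjusted p being above 0.05. The ISch rats above 80 CPM were replicates 1 and 2, and the lowest FIDch rat was replicate 2.

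Epas1, the alpha subunit of the factor HIF-2, had an interaction of the opposite sign. The male IS rats had 242, 258, 279 and 249 CPM, the ISch rats 239.8, 218, 229 and 242 CPM, the FID rats 263, 239, 245 and 257 CPM and the FIDch rats 311, 239.8, 277 and 269.5 CPM. All ISch rats lay below all IS rats, the nearest of them by under 1 CPM, at a log2 fold change of -0.15, and FIDch overlapped FID at 0.12, both under the limit. The interaction of Epas1 was 0.28 (standard error 0.10, adjusted p = 0.213), and it met the criterion without any 1 of the 16 libraries (0.21 to 0.34) and without the 3 libraries named in another form (0.31).

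The interaction of Slc2a1 in males had the sign of that of Epas1. Its values were 84.6, 106, 97.7 and 95.3 CPM in IS, 91.6, 84.1, 87.6 and 90.7 CPM in ISch, 96.3, 93.9, 97.4 and 88.2 CPM in FID and 107, 94.2, 108 and 93 CPM in FIDch rats, with overlap between IS and ISch and between FID and FIDch. Its interaction was 0.22 (standard error 0.10, adjusted p = 0.301), and it ran from 0.17 to 0.27 as each of the 16 libraries was left out. It left the criterion without IS replicate 2, 3 or 4, ISch replicate 2, 3 or 4, FID replicate 4, or FIDch replicate 1 or 3. It also left it without the 3 libraries named in another form (0.22, adjusted p = 0.416). The sum of 7 endothelial genes was 158 to 189 CPM in IS, 146 to 159 in ISch, 148 to 169 in FID and 141 to 176 in FIDch males, and Cldn5, a tight junction gene of brain endothelium, had an interaction of 0.54, the 1 of the 7 at the criterion, while 5 of the 7 were positive with a median of 0.061. All 6 pericyte genes were positive and 2 were at it, Kcnj8 at 0.87 and Pdgfrb at 0.33. Genes of other cell types and regions were at the criterion for this interaction as well, with 2 of 5 oligodendrocyte genes (Mbp 0.36 and Mobp 0.25), 2 of 6 astrocyte genes (Aldh1l1 0.35 and Aqp4 -0.32), 2 of 5 thalamic genes (Tcf7l2 0.49 and Lef1 0.49), 1 of 5 striatal genes (Ppp1r1b 0.29) and 1 of 4 entries of blood genes (Hba-a2 0.64). None of the 6 neuronal, 6 hippocampal field and 5 microglial genes was. Of the striatal genes 3 of 5 were negative (median -0.11), as were 3 of 6 astrocyte genes. All 6 hippocampal field genes were negative (median -0.12). All 3 choroid plexus genes tested were negative too (median -1.14), with 0 at the criterion. The part of these cells in the values of Epas1, Slc2a1, Bnip3 and Hif1a was not tested.

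**Figure D3:**
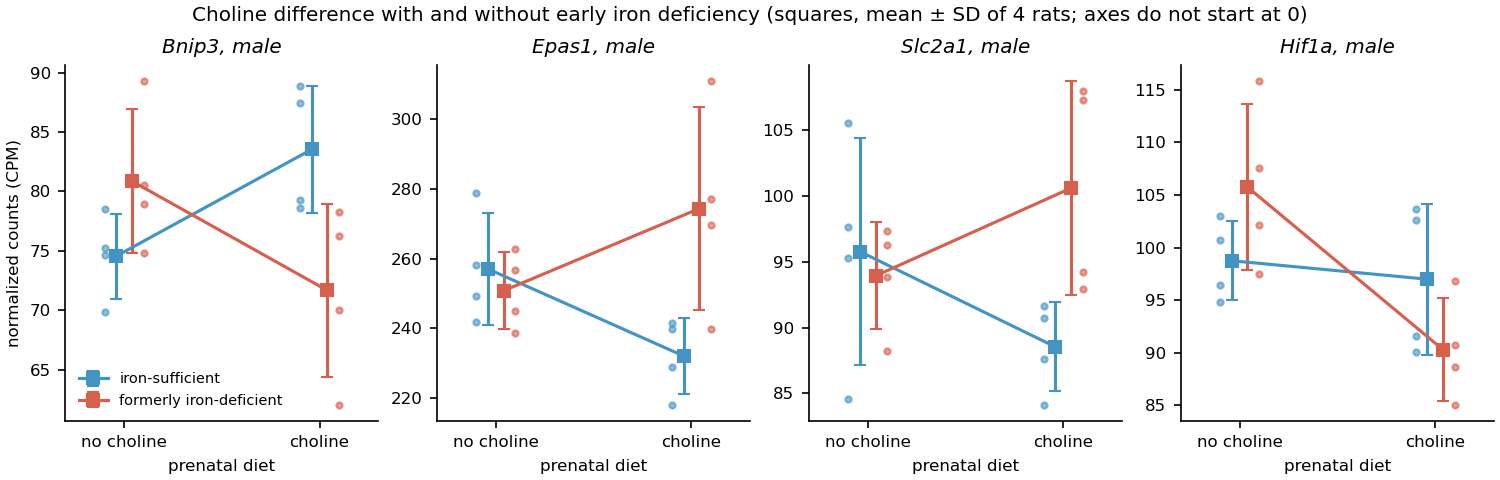
Normalized counts (CPM, axes not starting at 0) in male rats without and with prenatal choline, for iron-sufficient rats (blue, IS and ISch) and formerly iron-deficient rats (red, FID and FIDch). Squares are means ± SD of 4 rats and dots are rats. The lines cross in all 4 panels, with negative interactions for Bnip3 (-0.33) and Hif1a (-0.21) and positive ones for Epas1 (0.28) and Slc2a1 (0.22).

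Hif1a, the alpha subunit of the factor HIF-1, was lower in male FIDch than in male FID rats. The FIDch rats had 88.6, 96.8, 90.7 and 85.1 CPM and the FID rats 97.5, 116, 108 and 102 CPM. All FIDch rats lay below all FID rats, by a margin of under 1 CPM between the highest FIDch and the lowest FID rat. Hif1a fell by 15.5% (log2 fold change -0.24, standard error 0.067, adjusted p = 0.0956, exact permutation p = 0.0286). Without FID replicate 2, the highest rat, the value was -0.19 with adjusted p = 0.17. The IS rats, at 94.9, 101, 96.5 and 103 CPM, and the ISch rats, at 91.6, 90.1, 103 and 104 CPM, overlapped. The interaction of Hif1a was -0.21 (standard error 0.093, adjusted p = 0.295), and it ran from -0.25 to -0.16 as each library was left out. Without the 3 libraries named in another form it was -0.34. It left the criterion without IS replicate 1 or 3, ISch replicate 3 or 4, FID replicate 2 or 3, or FIDch replicate 1 or 4. In females Hif1a ranged from 81.7 to 88.9 CPM in IS and from 89.5 to 95.2 CPM in ISch. All female ISch rats lay above all IS rats, but the log2 fold change of 0.12 was under the limit. Hif1a overlaps a long noncoding RNA gene, LOC120103553, in RefSeq's annotation of GRCr8, and the kit used does not mark strand, so reads from the shared part cannot be told apart.

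Vegfa was higher in male FIDch than in male FID rats, the comparison in which Hif1a was lower. The FIDch rats had 98.8, 103, 109 and 97.7 CPM and the FID rats 92.1, 68.6, 94.2 and 96 CPM. The groups did not overlap, and FID replicate 2 stood far below the other 3 FID rats. Vegfa rose by 15.8% (log2 fold change 0.21, standard error 0.10, adjusted p = 0.268, exact permutation p = 0.0286). Without FID replicate 2 the log2 fold change was 0.11, with adjusted p = 0.369, and the criterion was also lost without FIDch replicate 1 (0.23), 2 (0.21) or 3 (0.18), in each case with an unadjusted p above 0.05. Against IS, at 94.4, 80.7, 97.8 and 87.5 CPM, the FIDch rats overlapped and the log2 fold change was 0.18, under the limit. It met the criterion without FIDch replicate 4 (0.20), IS replicate 1 (0.21) or IS replicate 3 (0.22). Other cell types' genes differed between male FID and FIDch rats as well. The neuronal sum was 7216 to 7758 CPM in FID and 6885 to 7123 CPM in FIDch, without overlap, and Snap25 was at a log2 fold change of -0.24, 1 of 6 neuronal genes at the criterion. Of 7 endothelial genes 3 met the criterion (Esam 0.30, Cldn5 0.23 and Slco1a4 -0.22), and the pericyte sum was 91 to 112 CPM in FID and 110.4 to 133 CPM in FIDch. Also at the criterion were 1 of 5 oligodendrocyte genes (Mbp 0.29), 1 of 6 astrocyte genes (Aqp4 -0.27), 1 of 5 striatal genes (Drd1 -0.47) and 1 of 5 thalamic genes (Lef1 0.35). Signs within these lists were mixed. Of the neuronal genes 3 were positive and 3 negative, and 4 of 7 endothelial genes were negative. Positive were 4 of 6 astrocyte genes (median 0.023), 3 of 5 striatal genes (median 0.009), 4 of 5 oligodendrocyte genes and 4 of 5 thalamic genes. All 6 hippocampal field genes were negative (median -0.11), with 0 at the criterion. The choroid plexus sum, given above for FID, was 6.54 to 9.2 CPM in FIDch. The part of these cells and regions in the Hif1a and Vegfa values was not tested. Without FID replicate 4, the rat with the most Ttr, Hif1a was at -0.26 and Vegfa at 0.26, both at the criterion. The remaining FID rats, at 11.5 to 22.8 CPM, still lay above all FIDch rats in the choroid plexus sum. The highest of these was FID replicate 2, without which both calls were lost.

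The hydroxylases and the remaining targets met the criterion in no comparison within a sex and in neither interaction. Egln1, the main hydroxylase of the Hif1a protein, had group means from 20.8 CPM in FID to 23.3 CPM in ISch males and from 24.8 CPM in FID to 26.9 CPM in ISch females. Egln3, a hydroxylase that is itself a target of the factors, had means from 14.8 CPM in FIDch to 16.9 CPM in FID males and from 17.5 CPM in FID to 18.5 CPM in IS females. The lowest and the highest of these groups overlapped in range for both genes in both sexes. Egln3 in male FIDch against FID was at -0.17, and without FIDch replicate 3 it was -0.27 and met the criterion. Pdk1, the kinase that keeps pyruvate out of the mitochondrial citric acid cycle, was highest in male IS rats (30.7 ± 1.78 CPM, SD, n = 4) and lowest in male FIDch rats (27 ± 1.89 CPM). Its log2 fold change there, -0.19, was under the limit, and it met the criterion without IS replicate 1 (-0.22) and without FIDch replicate 2 (-0.21). Female Pdk1 means lay between 22.7 CPM in FIDch and 23.8 CPM in ISch. Adm ranged from 0.734 to 1.82 CPM in IS and from 0.832 to 1.93 CPM in ISch females, with the widest spread of the 10 genes. Its approximate 95% interval for ISch against IS ran from -0.24 to 1.14 on the log2 scale. Without IS replicate 1 its log2 fold change there was 0.83 and met the criterion. In females Bnip3 and Epas1 also stayed outside the criterion, Bnip3 between -0.069 and 0.069 and Epas1 between -0.038 and 0.052 against IS. Male Ldha lay between -0.086 and -0.068 against IS in the 3 other groups.

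The sexes were compared by the female effect minus the male effect, fitted together on the 16 libraries of both groups. In ISch against IS, 2 of 10 genes met the criterion (14.2% of all genes tested), in FIDch against IS 3 (12.9%), in FID against IS 1 (7.64%) and in FIDch against FID 2 (17.7%). Vegfa was among them in each comparison but FID against IS, where its difference was -0.17 and, without male FID replicate 2, -0.27 and at the criterion. Epas1 lay just under the limit in ISch against IS at 0.1947 and met the criterion there with DESeq2, with RLE size factors and without male IS replicate 1 or 4, male ISch replicate 1 or 4, female IS replicate 1, or female ISch replicate 1 or 4, so that the count in that comparison ran from 2 to 3. The effect on Vegfa was -0.29 in female and 0.10 in male ISch rats (difference -0.39, adjusted p = 0.0899), and -0.23 in female and 0.18 in male FIDch rats (difference -0.41, adjusted p = 0.0756). Both differences met the criterion without any 1 of the 16 libraries. Slc2a1 differed between the sexes in FIDch against IS, at -0.21 in females and 0.079 in males (difference -0.29, adjusted p = 0.221). Its difference in FID against IS was -0.20, at the limit of the criterion, and was lost with DESeq2 or RLE size factors. It was also lost without male IS replicate 1, 3 or 4, male FID replicate 1, 2 or 3, female IS replicate 1, or female FID replicate 1, 2 or 4. Hif1a had the opposite sign to Vegfa, with a difference of 0.23 in FIDch against IS and 0.26 in FIDch against FID. The Hif1a difference in FIDch against IS was 0.199, under the limit, without female FIDch replicate 4. The Vegfa difference in FIDch against FID, -0.27, left the criterion without male FID replicate 2, male FIDch replicate 3, any female FID replicate, or female FIDch replicate 1 or 2. The largest shift, to -0.17, came without male FID replicate 2. Of the vessel markers, 1 of 6 pericyte genes (Pdgfrb, -0.39) and 1 of 7 endothelial genes (Esam, -0.33) met the criterion for this difference in FIDch against IS, while 4 of the 7 endothelial genes were positive (median 0.006). In ISch against IS, the pericyte gene Kcnj8 (0.89) and the endothelial gene Cldn5 (0.32) met it, both positive. In FIDch against FID, the pericyte genes Pdgfrb (-0.53) and Abcc9 (-0.44) and the endothelial gene Cldn5 (-0.31) met it, all negative. The part of the vessel markers in the Vegfa and Slc2a1 values was not tested. Bnip3 differed in ISch against IS by -0.24.

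**Figure D4:**
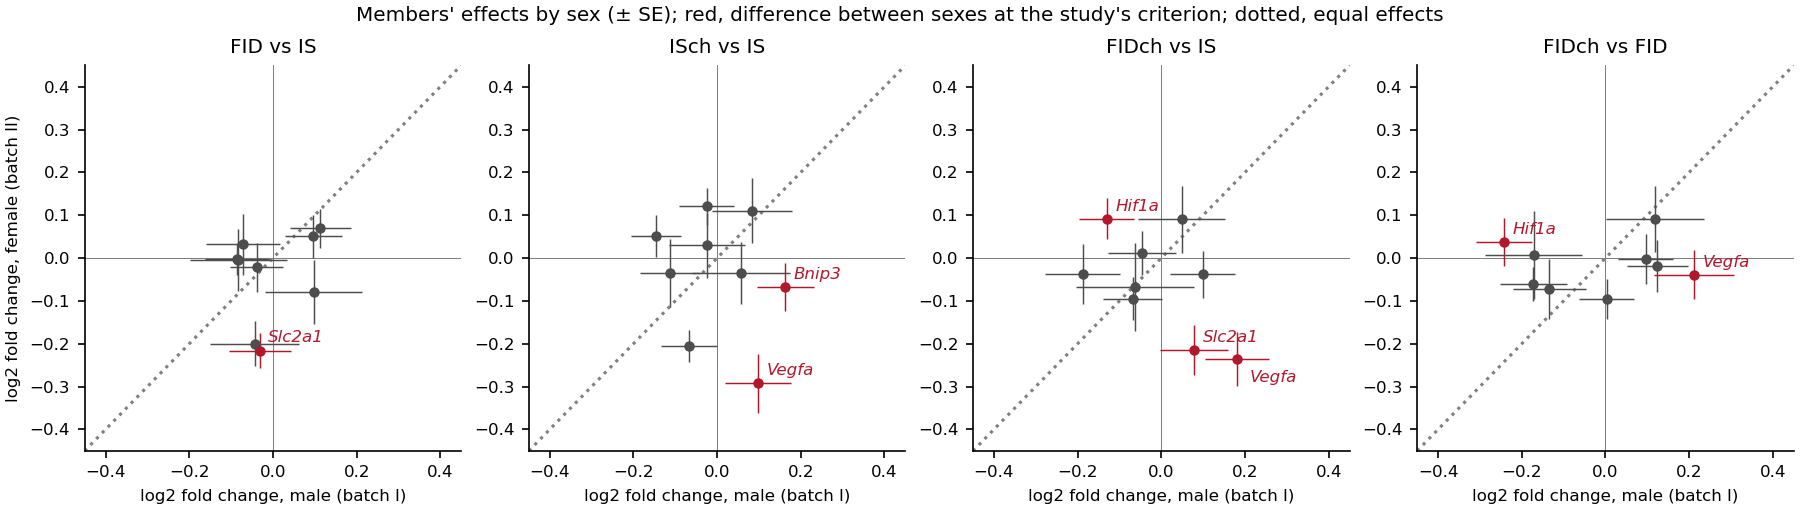
Log2 fold change of the 9 genes tested in both sexes (Adm is left out) in male rats (horizontal) and female rats (vertical) in 4 comparisons, with standard errors and a dotted line of equal effects. Genes in red differ between the sexes at the study's criterion. Vegfa lies far below the line in ISch against IS (difference -0.39) and FIDch against IS (-0.41).

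Beyond these genes, 76 other genes of the pathway were listed, and 69 of the symbols were in the tables. In male FID against IS 2 of 60 tested met the criterion, beside 4.62% of all genes, namely Edn1, the vasoconstrictor endothelin (-0.84), and Tfrc, the transferrin receptor (0.21). The median log2 fold change of the 60 was -0.042, against -0.0097 over all genes tested. In male ISch against IS 3 of 61 met it, beside 8.06% of all genes, namely the coactivator gene Crebbp (0.31), the nitric oxide synthase gene Nos3 (-0.29) and Cited2 (-0.24). In male FIDch against IS 3 of 60 met it, beside 6.12% of all genes, namely Pdk4, P4ha2 and Eloc, at 0.67, 0.33 and -0.27.

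In male FIDch against FID 11 of 61 met the criterion, in a comparison where 13% of all genes did. The 5 largest in size were higher in FIDch, namely the lactate exporter Slc16a3 (0.80), Pdk4 (0.78), Edn1 (0.55), the mTOR inhibitor Ddit4 (0.38) and Nos3 (0.33). All 9 vascular targets tested had a positive log2 fold change there, with a median of 0.17 against -0.0003 over all genes, and 3 of the 9 met the criterion. For the male interaction 10 of 64 met it, beside 14.4% of all genes. The 5 largest in size were those of Stc2 (1.43), Edn1 (0.91), Nos3 (0.62), Ddit4 (0.44) and Ero1a (-0.36). Of 21 glycolytic genes 18 had a positive interaction (median 0.10 against 0.0095 over all genes), with 2 at the criterion. These were the aldolase genes Aldoc (0.28) and Aldoa (0.20), named after their values were seen.

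In females, 8 of 67 listed genes met the criterion in FID against IS, as did 6.47% of all genes. The targets Edn1 (0.66) and Kdr, the receptor of the Vegfa protein (0.44, named after its value was seen), were higher, and Hif3a (-1.66), Pdk4 (-0.87) and Ddit4 (-0.52, adjusted p = 0.0119) were lower. Eno2 was also at the criterion (1.90), with values of 43, 6.12, 4.68 and 2.98 CPM in FID and 3.59, 3.9, 4.49 and 3.44 CPM in IS rats. A single FID rat was far above the others. In ISch against IS 6 of 66 met it, of which 5 were lower, beside 10.3% of all genes, and 17 of 21 glycolytic genes besides Ldha had a negative log2 fold change (median -0.063 against -0.0037 over all genes). Of these 21, 1 was at the criterion, Pfkl, the liver-type phosphofructokinase (-0.32, adjusted p = 0.00334). The vascular genes Edn1 (-1.13) and Vegfb (-0.46) were lower as well, as was the coactivator gene Crebbp (-0.30), and Ndrg1 was higher (0.35). The female IS rats had 2.78, 2.28, 6.82 and 2.6 CPM of Edn1, where IS replicate 3 was far above the other 3, and this rat enters all Edn1 values against female IS.

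In female FIDch against IS 11 of 67 met the criterion, 6 higher and 5 lower, beside 8.98% of all genes. Slc2a3, the neuronal glucose transporter, was among the higher ones, with 0.628, 8.27, 0.443 and 0.185 CPM in FIDch against 0.404, 0.579, 0.308 and 0.462 CPM in IS, and Eno2 was another, with 32, 3.16, 8.47 and 2.96 CPM in FIDch. For each of these a single FIDch rat was far above the others. The remaining Slc2a3 values, 0.185 to 0.628 CPM, were near the 0.11 to 0.16 CPM that a count of 0 allows in females. Whether the entries counted here hold all transcripts of Slc2a3 and Eno2 was not tested. Edn1 (-0.92) and Crebbp (-0.38) were lower, and Ndrg1 (0.38) was higher. In FIDch against FID, where 0 of the 10 main genes met the criterion, 10 of 67 others did, in a comparison where 12.7% of all genes did. Of the 11 vascular targets, 8 had a negative log2 fold change and 5 met the criterion, all lower in FIDch. Edn1 had 2.0, 2.14, 1.24 and 2.22 CPM in FIDch and 5.92, 5.91, 6.26 and 4.83 CPM in FID rats. The groups did not overlap (-1.59, adjusted p = 0.00272). Kdr (-0.62), the Vegfa receptor gene Flt1 (-0.25), Vegfb (-0.28) and Cxcl12 (-0.22) were the others, of which all but Kdr were named after their values were seen. Outside the vascular genes, Bhlhe40 (-0.38), Ero1a (-0.34) and Pfkl (-0.28) were lower. The difference between the sexes met the criterion for 7 of 66 of these genes in FID against IS (7.64% of all genes), 8 in ISch against IS (14.2%), 11 in FIDch against IS (12.9%) and 18 in FIDch against FID (17.7%), where Edn1 differed by -2.16 (adjusted p = 0.00168). For the female interaction 3 of 67 met it, beside 7.33% of all genes, namely Kdr (-0.64), Cxcl12 (-0.33) and P4ha2 (0.22).

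**Figure D5:**
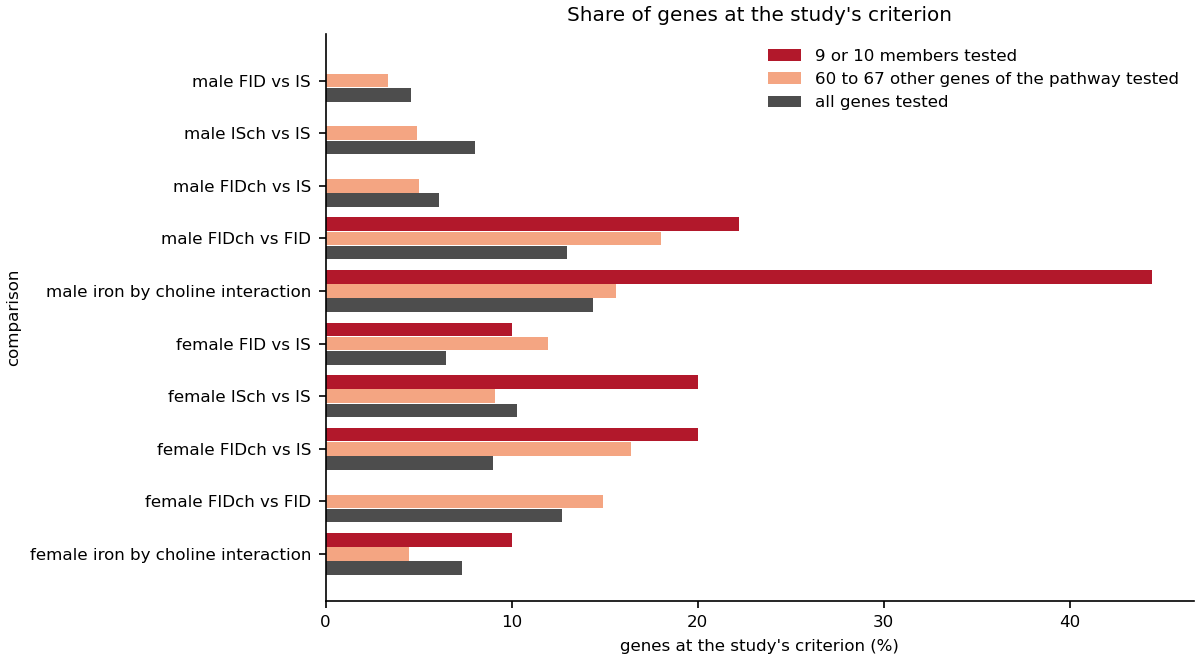
Share of genes at the study's criterion (%, horizontal axis) in each comparison for the 10 genes described here, the other listed genes of the pathway and all genes tested. For the male interaction the members' bar stands for 4 of 9 genes, against 14.4% of all genes.

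No pair of the 10 genes passed the test for varying together from rat to rat within a diet group. Over 45 pairs of genes, correlated as deviations of log2 CPM (with 0.5 added) from the group means over 16 libraries, 0 pairs had an adjusted p under 0.05 in either sex by a permutation test with 100000 resamples within groups, adjusted over the 45 pairs of a sex. An unadjusted p under 0.05 was found for 3 pairs in males and 6 in females. The largest Pearson r in males was that of Bnip3 and Ldha (r = 0.658, permutation p = 0.00988, adjusted p = 0.445, Spearman rho = 0.656, permutation p = 0.015), and it was 0.487 without the 2 libraries farthest from the median. In females the largest in size was that of Egln3 and Ldha (r = -0.713, permutation p = 0.0479, adjusted p = 0.359, Spearman rho = -0.679, permutation p = 0.0456), and it was -0.585 without 2 such libraries. Among 13161 genes, those whose deviations were most like those of Hif1a in both sexes were Rap2a (r = 0.783 in males and 0.759 in females), Gpm6a (0.661 and 0.675) and Sypl1 (0.655 and 0.758). For Epas1 they were Tctn1 (0.692 and 0.722), Apln (0.671 and 0.657) and Hnrnpul2 (0.703 and 0.638), each over 16 libraries of a sex and given as a description.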

How the data were processed

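Hippocampal RNA of 32 rats was made into libraries with a kit that does not mark strand and sequenced as paired reads, the males as batch I and the females as batch II. The deposited files hold raw counts per gene, made by the authors and not normalized, in a male and a female table of 16 libraries each. The submitters' processing notes name FastQC, Trimmomatic, HISAT2, featureCounts of the Subread package and the build Rnor_6.0, and how reads matching several genes were counted is not given in the sources used here. Groups were read from the sample labels. The 10 members and all gene lists were chosen with earlier results of these data known, so their counts are descriptions.

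Counts were analysed with edgeR 4.0.16 in R 4.3.3, after filterByExpr and TMM scaling, by its quasi-likelihood test on the 8 libraries of each pair of groups and, for interactions, on 16. P-values were adjusted by the Benjamini-Hochberg method over all genes tested. Calls followed the criterion of the study, a log2 fold change above 0.2 in size with an unadjusted p under 0.05. Each library total, from 3515806 to 26616318 counts, sets the precision. A count of 0 allows up to 3 counts, which is 0.32 to 0.85 CPM in males and 0.11 to 0.16 CPM in females, for counting error only. The scripts were tested on simulated data.

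All members were named. Of other pathway genes at the criterion, the 5 largest in size (or all, if fewer) were named for each comparison within a sex and each interaction, and only Edn1 for the sex differences, while others are marked as named after their values were seen. For Hif1a and Epas1 the 3 genes with the highest smaller Pearson r of both sexes were named. Alternatives were DESeq2 1.42.0, the likelihood ratio test, RLE size factors, no expression filter, all 4 groups in a fit, a replicate block, each library left out, and 3 male libraries with another form of name left out. Replicate numbers are shared between groups, but deviations of same-numbered samples correlated at -0.24 to 0.253 over 48 pairs, with 7 over 0.1, and they were not treated as pairs.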

Additional observations from a re-analysis of the deposited data

Results flagged for a closer look

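Among 80 groups of 4 rats (10 genes, 4 diets, both sexes), 5 held a rat whose gap to the nearest other rat exceeded Dixon's critical value for 4 samples, as a share of the group's range, 1 of 40 in males and 4 of 40 in females. Chance flags about 1 in 20 groups. The rats were male FID replicate 2 for Vegfa (68.592 CPM), female IS replicate 1 for Slc2a1 (122.76 CPM), female FID replicate 3 for Slc2a1 (107.26 CPM), female ISch replicate 1 for Egln1 (23.484 CPM) and female ISch replicate 4 for Egln3 (19.054 CPM). The first of them is the library without which the male Vegfa and Hif1a calls in FIDch against FID were lost. It was also the highest male FID rat for Hif1a, Bnip3, Pdk1, Ldha and Egln3, and the lowest for Epas1 and Adm. The second is the library without which the female Slc2a1 calls against IS were lost.

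Calls at the study's criterion for a difference between iron histories came from an interaction term in edgeR's quasi-likelihood test. They were, in males, Epas1 (0.2794), Slc2a1 (0.217), Hif1a (-0.208) and Bnip3 (-0.3269), and in females Vegfa (0.2535), on the log2 scale. None had an adjusted p under 0.05.

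Calls at the study's criterion for a difference between the sexes are given as female minus male on the log2 scale. They were Slc2a1 in FID against IS (-0.2017) and Bnip3 (-0.2353) and Vegfa (-0.393) in ISch against IS. In FIDch against IS they were Slc2a1 (-0.2878), Hif1a (0.228) and Vegfa (-0.4107), and in FIDch against FID Hif1a (0.2612) and Vegfa (-0.2703). None had an adjusted p under 0.05 in the main fits, and sex cannot be told apart from sequencing batch.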

How the results depend on the processing

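The 20 calls of a member in a comparison kept their direction in all 377 values under the alternatives, and 319 of these also met the criterion, with 8 of the 20 calls met in every one. In the main fits only Ldha had an adjusted p under 0.05. Under some alternatives it was also under 0.05 for Slc2a1 in female FID and FIDch against IS. The same held for Vegfa in female ISch and FIDch against IS and for its sex differences in these 2 comparisons. Counts of members at the criterion moved without the 3 male libraries named in another form, from 0 to 1 in male FIDch against IS, from 2 to 1 in male FIDch against FID and from 4 to 2 for the male interaction, and the sex difference in FID against IS went from 1 to 0 with DESeq2 and 0 with RLE size factors. Over all genes, male FID against IS had 1023 calls with all genes of at least 1 count, male ISch against IS 679 without those libraries, and female ISch against IS, with 368 genes at an adjusted p under 0.05, had 678 with DESeq2, 614 with the likelihood ratio test and 81 with the replicate block, under which Ldha had an adjusted p of 0.106 in that comparison. The male Slc2a1 interaction left the criterion under that block. Correlated pairs in males rose from 0 to 2 when deviations were taken from the mean of all 16 libraries. As each library was left out, members at the criterion ranged from 0 to 2 in male FIDch against IS, 0 to 3 in male FIDch against FID, 2 to 4 for the male interaction, 0 to 2 in female FID against IS, 1 to 3 in female ISch against IS, 0 to 2 in female FIDch against IS, and 0 to 1 and 1 to 3 for the sex differences in FID against IS and FIDch against FID. Calls over all genes ranged from 392 to 1236 in male FID, 815 to 1811 in male ISch and 681 to 1267 in male FIDch, each against IS, from 879 to 1768 for the sex difference in FID against IS, and genes with an adjusted p under 0.05 in female ISch against IS from 103 to 796. The cause of these shifts was not tested. Depth limits Adm, whose male counts were too few for a test.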
